A study of Mus musculus with 6 samples.

Results

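Imprinted genes, which in some or all tissues of the mouse are expressed mainly from the maternal or the paternal chromosome, were followed in livers with a stabilised β-catenin. A list of 47 genes with known parent-of-origin expression was matched by symbol to the deposited expression table, and 46 of them were found among its 31950 genes; Magel2 was not analysed here. Livers of 3 WT mice were compared with livers of 3 β-cateninΔ(ex3)/+ mice, all C57BL/6 and labelled 8 weeks old. The mutants carry 1 Ctnnb1 allele without exon 3, the exon that holds the phosphorylation sites for β-catenin destruction. By the study's methods, livers of this name came from mice whose tamoxifen-inducible Cre is driven by the albumin promoter, so recombination is directed to hepatocytes and not to the other cells of the liver. Whether the WT mice carried the Cre or received tamoxifen is not given for the sequenced livers. Every value is a gene's FPKM (fragments per kilobase of transcript, scaled to sequencing depth) in whole-liver poly(A) RNA. It sums both parental alleles, so allelic origin was not measured, and in bulk tissue fewer cells of a type cannot be told apart from less RNA per cell.

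Imprinted genes lie mostly in clusters, each under an imprinting control region whose DNA methylation is set in the egg or sperm and kept after fertilisation against the reprogramming of the embryo. Many of them act on fetal and placental growth, the paternally expressed Igf2 promoting it and the maternally expressed Cdkn1c, Grb10 and H19 restraining it. In rodent liver H19, Igf2, Dlk1, Peg3, Mest and Plagl1 are strongly expressed before birth and are silenced in the weeks after it.

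From the low values of genes with 1 exon, sequencing depth was estimated at 24.44 to 24.66 M fragments in the WT livers and 16.98 to 19.56 M in the mutants. Ctnnb1 itself stood at 25.9, 28.0 and 27.3 FPKM in WT and 25.4, 25.2 and 25.0 in mutant livers (log2 difference −0.10, limma adjusted p = 0.0935), and a value summed over the gene does not show the missing exon. Known β-catenin targets separated the groups, with 7 of 10 past both thresholds, all higher in mutants, against 8.17% of all tested genes. Sex-linked genes separated them too. Xist, the RNA of the inactive X chromosome, was at 20.3 to 22.2 FPKM in WT and at most 0.0146 in mutant livers, and the Y-linked Eif2s3y was at most 0.0169 in WT and 9.20 to 9.94 in mutants. Sex and genotype therefore cannot be told apart in any result given here. All 6 livers are labelled with the same age, yet the WT livers held the fetal gene Afp at 607.6 FPKM on average, and H19 and Igf2 at levels given below, although these genes are known to be nearly silent in the normal adult mouse liver. The WT values are thus out of line with the labelled age, whose correctness could not be checked from the expression table, and "fell" or "lower" means lower than in these WT livers.

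Of 29 imprinted genes with a mean of at least 0.5 FPKM over the 6 livers, 9 were lower in mutant livers and 0 were higher by limma at an adjusted p under 0.05 and a fold change of at least 2. This fold is taken on FPKM + 1, so for genes near or below 1 FPKM it is smaller than the ratio of the mean FPKM. The 9 make up 31.0% of those tested, whereas 4.52% of all 13243 tested genes were called lower, 8.17% higher and 12.7% in either direction. The 9 genes were H19, Igf2, Grb10, Peg3, Mest, Cdkn1c, Plagl1, Sgce and Dlk1, which lie in 8 of the 23 clusters and single loci represented. H19, Igf2, Peg3, Plagl1, Sgce and Dlk1 reached the filter only through the WT livers, as their mutant means were 0 to 0.302 FPKM. The share of 31.0% thus describes a set selected in part by its WT level, and it was not tested. A further 8 (27.6%) passed the adjusted p with a change under 2-fold, 5 of them lower and 3 higher, against 44.3% of all tested genes, and 12 did not pass it. At any fold, 58.6% of the imprinted genes and 57.0% of all tested genes passed the adjusted p, so the share that passed was close to the background. By direction, 48.3% passed as lower, against 19.6% of all, and 10.3% as higher, against 37.4%. The median log2 difference over the 29 was −0.26, against 0.14 over all tested genes. In 17 of the 29 (58.6%) every mutant liver was below every WT liver, against 23.0% of all tested genes, and in 4 (13.8%) every mutant liver was above, against 43.0%. Other scalings shift the balance of all calls, from 1082 higher and 598 lower as deposited to 857 and 750 with median-ratio scaling and to 797 and 812 with quantile normalization. They lower the median of all genes by 0.13 and 0.16 on the log2 scale, and both call 11 imprinted genes lower and 0 higher.

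**Figure D1:**
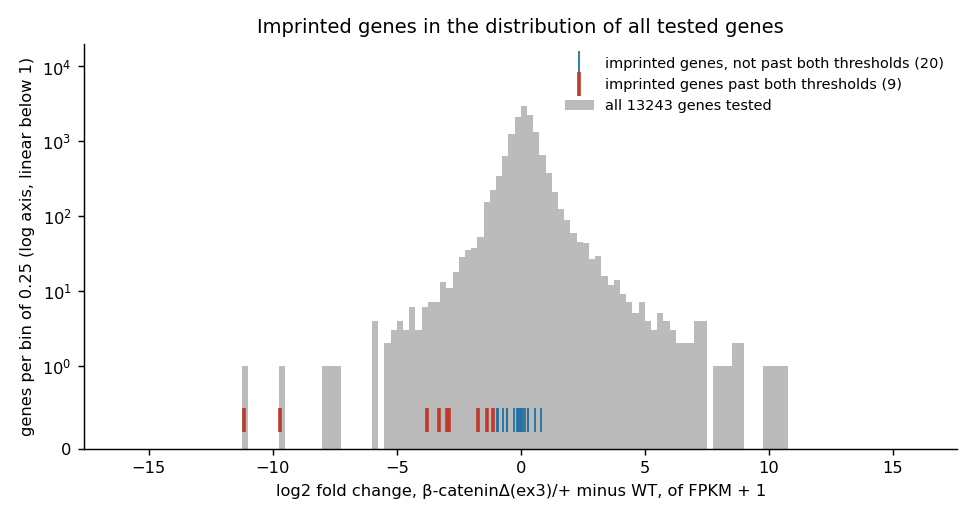
Log2 fold change (β-cateninΔ(ex3)/+ minus WT, of FPKM + 1) of all 13243 tested genes in bins of 0.25, on a log count axis, with the 29 tested imprinted genes as ticks. The 9 that passed both thresholds, in red, lie to the left of 0, and H19 and Igf2 hold the lowest positions of the whole distribution.

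The largest drops were at the H19-Igf2 locus, controlled by imprinting centre 1 on chromosome 7. H19 is a noncoding RNA made from the maternal chromosome, at chr7:142575529-142578143 on the minus strand in the file's coordinates. It stood at 2320, 2374 and 2364 FPKM in WT livers and at 0.0107, 0.0480 and 0.0192 in mutant livers. It ranked 33rd or 34th among all genes of each WT liver and between 18586 and 20575 in the mutants. The log2 difference was −11.16 (SE 0.033, limma adjusted p = 7.74e-10), the most negative of the 13243 genes. Igf2, the paternally expressed fetal growth factor of the same locus (chr7:142650766-142666816, minus strand), stood at 836, 803 and 847 FPKM in WT and was listed at 0 in all 3 mutant livers. Its log2 difference of −9.70 (SE 0.037, limma adjusted p = 1.19e-09) was the second most negative and depends on the added 1, as does that of H19. With 0.1 added instead, these became −13.02 for Igf2 and −14.20 for H19.

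Other transcripts annotated within the Igf2 locus bear on its listed 0. Gm49394, annotated on the same strand over nearly the same span, was listed at 0 in WT and at 0.197, 0.183 and 0.303 FPKM in mutants, so that fragments of Igf2 could have been assigned to it there. With both summed, the log2 difference of Igf2 was −9.40 (limma adjusted p = 4.11e-09). Igf2os, the antisense transcript, was at 1.73 ± 0.148 FPKM (SD, n = 3) in WT and listed at 0 in the mutants (log2 −1.45). The row of the miRNA gene Mir483 held 1.36, 0 and 0.290 FPKM in WT and 0 in mutants. Whether strand was used in the counting is not stated. This also touches Mest with Copg2, Kcnq1 with Kcnq1ot1, Igf2r with Airn and Zrsr1 with Commd1, since these overlap on opposite strands.

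Both genes, and Mest below, are hosts of miRNAs that are cut from their transcripts. The mature miRNAs are printed here because their precursors are part of the RNAs that fell; they were not measured, since a poly(A) library does not capture them. The sequences and positions are those of RefSeq (GRCm38.p6), with the seed, bases 2 to 8, in capitals. No other mature mouse miRNA of that table has any of these 6 seeds, nor do they share one among themselves. The H19 hairpin lies at chr7:142577064-142577147, the Igf2 hairpin at chr7:142654924-142654996 (both minus strand) and the Mest hairpin at chr6:30741299-30741396 (plus strand).
mmu-miR-675-5p (H19): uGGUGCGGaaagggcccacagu
mmu-miR-675-3p (H19): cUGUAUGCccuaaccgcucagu
mmu-miR-483-5p (Igf2): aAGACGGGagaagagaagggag
mmu-miR-483-3p (Igf2): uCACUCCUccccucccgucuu
mmu-miR-335-5p (Mest): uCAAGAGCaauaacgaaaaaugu
mmu-miR-335-3p (Mest): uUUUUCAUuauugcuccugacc

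H19 and Igf2 together made up 0.709%, 0.711% and 0.721% of the summed FPKM of the WT livers. All 46 imprinted genes summed to 3495 to 3546 FPKM in WT and 246.0 to 250.9 in mutant livers. Without H19 and Igf2 the sums were 338.5, 334.7 and 335.2 in WT and 246.7, 246.0 and 250.8 in mutants. Most of the summed level of a mutant liver thus came from genes that were not called, led by the amino acid transporter Slc38a4, the tetraspanin Cd81 and Gnas. The ratio of H19 to Igf2 was 2.78, 2.96 and 2.79 in the WT livers and is undefined in the mutants.

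**Figure D2:**
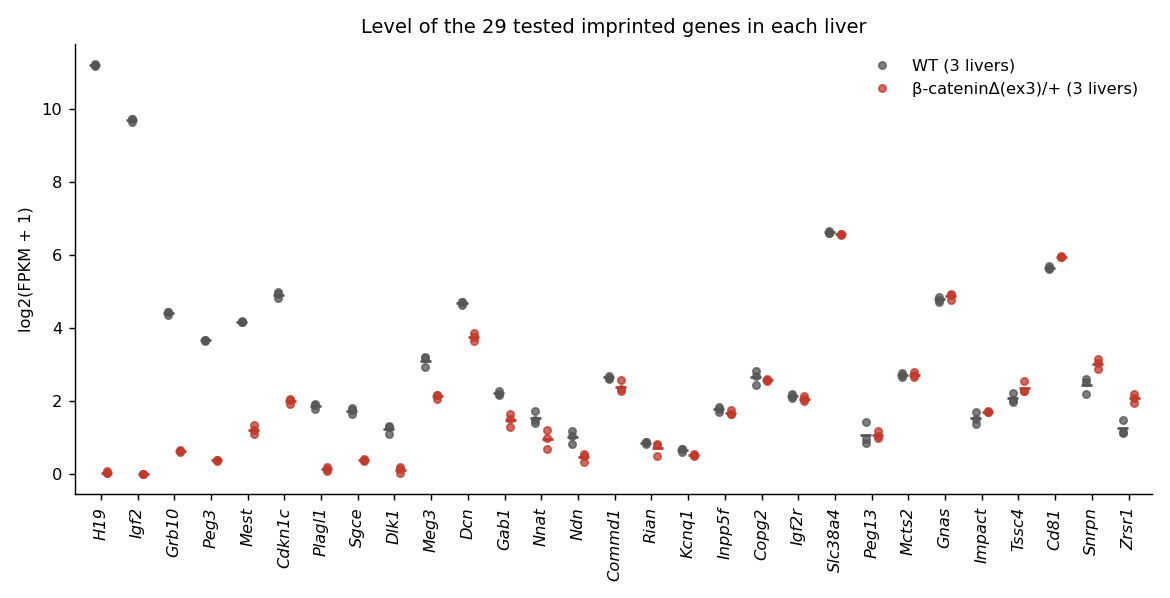
Log2(FPKM + 1) of the 29 tested imprinted genes in each of 3 WT (grey) and 3 β-cateninΔ(ex3)/+ (red) livers, ordered by their difference, with a bar at each group mean. From H19 to Ndn the groups do not overlap and the mutants are lower; Cd81, Snrpn and Zrsr1 at the right are higher in every mutant liver.

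Cdkn1c and Grb10 are maternally expressed restraints on growth. Cdkn1c encodes the cyclin-dependent kinase inhibitor p57 and stood at 30.5, 27.1 and 29.3 FPKM in WT and 2.74, 3.08 and 3.17 in mutant livers. Its WT mean was 9.68 times the mutant mean (log2 −2.91, SE 0.067, limma adjusted p = 6.66e-07). Grb10, an adaptor that dampens signalling from the insulin and IGF1 receptors, stood at 19.6, 20.4 and 20.5 FPKM in WT and 0.546, 0.560 and 0.508 in mutants. This was a 37.5-fold drop in the means (log2 −3.78, SE 0.048, limma adjusted p = 6.52e-08), and neither gene overlapped between the groups.

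Plagl1 and Peg3, paternally expressed, encode zinc finger transcription factors. Plagl1, which induces cell cycle arrest when overexpressed, was at 2.66, 2.76 and 2.44 FPKM in WT and 0.0650, 0.142 and 0.0903 in mutants (log2 −1.72, SE 0.065, limma adjusted p = 5.18e-06). Peg3 was at 11.4, 11.7 and 11.7 FPKM in WT and 0.296, 0.281 and 0.295 in mutants, a 39.9-fold drop (log2 −3.29, SE 0.048, limma adjusted p = 1.07e-07). The other members of its cluster on chromosome 7 did not reach the expression filter, though their groups did not overlap either. Zim1, another zinc finger gene but made from the maternal chromosome, was at 0.857, 0.983 and 0.972 FPKM in WT and at 0, 0 and 0.0108 in mutants. Usp29, a paternally expressed ubiquitin protease gene whose start faces that of Peg3, was at 0.145, 0.149 and 0.164 in WT and at 0.00283, 0 and 0 in mutants. In a fit over all genes without the filter, limma gave adjusted p = 5.51e-05 for Zim1 and 0.000352 for Usp29, and both differences were under 2-fold on the log2(FPKM + 1) scale, −0.95 and −0.20. Lower mutant values were thus seen for maternally and paternally expressed genes of 1 cluster.

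Mest, a paternally expressed gene for an α/β-hydrolase fold protein, stood at 16.8, 16.9 and 17.3 FPKM in WT and 1.29, 1.53 and 1.13 in mutant livers (12.9-fold, log2 −2.96, SE 0.073, limma adjusted p = 8.85e-07). Copg2, the maternally expressed neighbour that encodes a coatomer subunit and overlaps the end of Mest on the other strand, stood at 5.47, 6.08 and 4.37 FPKM in WT and 4.86, 5.07 and 4.91 in mutants. The Copg2 groups overlapped (log2 −0.08, 95% CI −0.34 to 0.18, limma adjusted p = 0.574). Within single livers the ratio of Mest to Copg2 was 2.78 to 3.95 in WT and 0.230 to 0.302 in mutants.

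Sgce and Peg10 start close together on opposite strands of chromosome 6 and are both paternally expressed. Sgce, which encodes ε-sarcoglycan, was at 2.10, 2.50 and 2.38 FPKM in WT and 0.300, 0.289 and 0.317 in mutants (7.71-fold, log2 −1.35, SE 0.067, limma adjusted p = 1.63e-05). Peg10, a gene derived from a retrotransposon, missed the filter at 0.795, 0.857 and 1.06 FPKM in WT and 0.0780, 0.0481 and 0.0499 in mutants. Its difference in the fit without the filter was −0.84 (limma adjusted p = 0.000327). Ppp1r9a and Asb4, maternally expressed genes of the same cluster, were at or below 0.771 FPKM in every liver and lower in every mutant, but did not pass the adjusted p in that fit (0.12 and 0.126).

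In the Dlk1-Dio3 cluster on chromosome 12 Dlk1, made from the paternal chromosome, was called and Meg3, made from the maternal one, was not; the difference between the changes of these genes was not tested. Dlk1, which encodes a transmembrane protein of the Notch ligand family found on fetal liver progenitors, was at 1.47, 1.15 and 1.42 FPKM in WT and 0.0893, 0.141 and 0.0180 in mutants (16.3-fold, log2 −1.11, SE 0.083, limma adjusted p = 9.40e-05). Meg3, a noncoding RNA, was at 8.03, 6.64 and 8.22 FPKM in WT and 3.48, 3.15 and 3.50 in mutants. Its groups did not overlap, and its difference of −0.98 (SE 0.088, limma adjusted p = 0.000215) fell just short of 2-fold on the scale of FPKM + 1. The WT mean FPKM of Meg3 was 2.26 times the mutant mean. Its log2 difference passes 2-fold with either scaling, with 0.1 added, or without WT replicate 2. Rian, another maternal noncoding RNA of the cluster and host of small nucleolar RNAs, overlapped between the groups at 0.753 to 0.846 and 0.412 to 0.755 FPKM (limma adjusted p = 0.228). Inside single livers the ratio of Meg3 to Dlk1 was 5.47 to 5.80 in WT and 22.4 to 194.7 in mutants, the wide mutant range resting on Dlk1 values near 0. Below the filter, Mirg was at 0.336 to 0.371 and 0.256 to 0.292 FPKM, and Dio3, which encodes the deiodinase that inactivates thyroid hormone, at 0.189 to 0.665 and 0.0253 to 0.0291. Rtl1 stayed at or below 0.0514 FPKM in every liver.

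The well expressed genes Dcn and Gnas stood on either side of the adjusted p threshold. Dcn encodes the matrix proteoglycan decorin and was at 23.8, 25.3 and 25.1 FPKM in WT and 12.3, 11.6 and 13.6 in mutants (log2 −0.94, SE 0.065, limma adjusted p = 7.02e-05). It passes 2-fold with median-ratio scaling (−1.12) and quantile normalization (−1.22). Gnas, which encodes the stimulatory G protein α subunit, overlapped at 27.8, 26.3 and 25.3 FPKM in WT and 28.6, 26.3 and 29.6 in mutants (95% CI of the log2 difference −0.06 to 0.23, limma adjusted p = 0.273), and its sign turns with either scaling.

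Lower mutant values that passed the adjusted p at under 2-fold on the scale of FPKM + 1 were also found for 3 genes listed as paternally expressed. Gab1, a docking protein of receptor tyrosine kinases, was at 3.80, 3.55 and 3.47 FPKM in WT and 1.85, 2.10 and 1.46 in mutants (log2 −0.72, limma adjusted p = 0.0012). Nnat, the endoplasmic reticulum proteolipid neuronatin, was at 1.61 to 2.31 and 0.605 to 1.31 FPKM (log2 −0.58, limma adjusted p = 0.0222), and it does not pass without WT replicate 1 (adjusted p = 0.052), WT replicate 3 (0.0664) or mutant replicate 2 (0.0546). Ndn, the MAGE family protein necdin, was at 0.753 to 1.26 and 0.247 to 0.447 FPKM (log2 −0.56, limma adjusted p = 0.00777), and its WT mean was 2.76 times the mutant mean. None of the 3 overlapped between the groups.

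Higher mutant values that passed the adjusted p, likewise under 2-fold, were found for Zrsr1, Snrpn and Cd81. Zrsr1, a retrogene related to the splicing factor U2AF, was at 1.17, 1.78 and 1.23 FPKM in WT and 3.20, 3.54 and 2.85 in mutants (log2 0.82, SE 0.12, limma adjusted p = 0.00172). Its mutant mean was 2.29 times the WT mean, and with 0.1 added in place of 1 it passes both thresholds. Snrpn, a spliceosomal protein gene in the Prader-Willi/Angelman cluster, was at 4.75, 3.59 and 5.08 FPKM in WT and 7.15, 7.92 and 6.33 in mutants (log2 0.58, SE 0.13, limma adjusted p = 0.0102), and with quantile normalization it does not pass (adjusted p = 0.0523). It thus went the other way from Ndn, a paternally expressed gene of the same cluster; the ratio of Snrpn to Ndn was 4.04 to 4.77 in WT and 15.2 to 32.1 in mutants. Cd81 was at 51.1, 47.6 and 49.0 FPKM in WT and 60.5, 60.0 and 61.7 in mutants (log2 0.30, SE 0.039, limma adjusted p = 0.00106), a difference that shrinks to 0.03 with quantile normalization and no longer passes (adjusted p = 0.623).

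The region of imprinting centre 2, also on chromosome 7, held 7 of the listed genes and only Cdkn1c among them passed both thresholds. Beside Cd81, Tssc4 was at 2.92 to 3.66 FPKM in WT and 3.80 to 4.78 in mutants (log2 0.29, limma adjusted p = 0.0584), and the potassium channel gene Kcnq1 at 0.530 to 0.608 and 0.415 to 0.471 (log2 −0.13, limma adjusted p = 0.0944). Phlda2 overlapped at 0.162 to 0.345 and 0.158 to 0.387 FPKM. Kcnq1ot1, the paternal noncoding RNA that silences this cluster, stayed at or below 0.0420 FPKM, and Ascl2 at or below 0.0323. In single livers the ratio of Cdkn1c to Cd81 was 0.570 to 0.599 in WT and 0.0452 to 0.0513 in mutants.

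The abundant Slc38a4, a paternally expressed transporter of neutral amino acids, was at 96.1, 99.8 and 96.4 FPKM in WT and 92.7, 93.5 and 94.0 in mutants. Its groups did not overlap, but the log2 difference of −0.06 (95% CI −0.14 to 0.01, limma adjusted p = 0.136) did not pass, whereas it did with quantile normalization (−0.29, adjusted p = 0.000716). Commd1, a copper homeostasis gene, was at 5.45, 5.10 and 5.21 FPKM in WT and 3.97, 3.80 and 4.99 in mutants (log2 −0.26, limma adjusted p = 0.0576). Mcts2, a retrogene within an intron of H13, overlapped at 5.25, 5.74 and 5.54 FPKM in WT and 5.93, 5.48 and 5.27 in mutants (limma adjusted p = 0.895). Igf2r, the receptor that carries IGF2 to lysosomes, overlapped at 3.56, 3.35 and 3.20 and 2.96, 3.17 and 3.38 (95% CI −0.23 to 0.09, limma adjusted p = 0.394). The remaining tested genes Impact, Inpp5f and Peg13 also overlapped. With median-ratio scaling and quantile normalization the lower values passed the adjusted p at under 2-fold for Commd1 (0.0104 and 0.00909), Igf2r (0.0325 and 0.0214), Inpp5f (0.0216 and 0.0168) and Kcnq1 (0.0308 and 0.0288). Commd1 passed without mutant replicate 3 (adjusted p = 0.00661), Tssc4 without WT replicate 1 (0.0396) and Impact, as higher, without WT replicate 2 (0.0279).

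**Figure D3:**
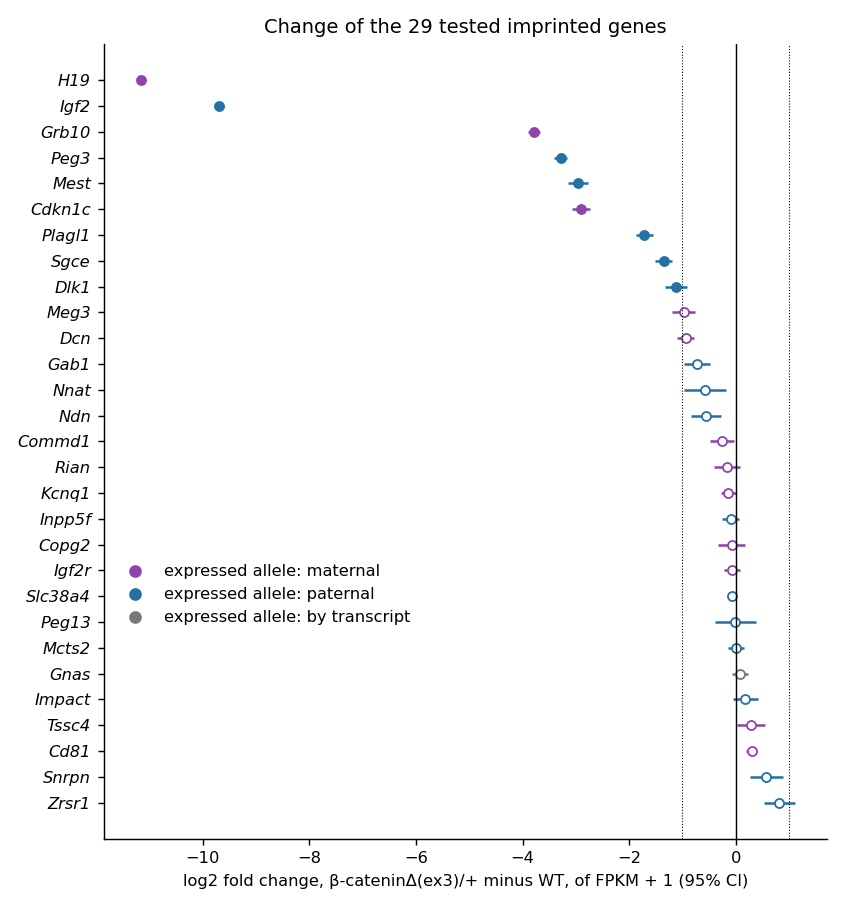
Log2 fold change (β-cateninΔ(ex3)/+ minus WT, of FPKM + 1) with its 95% confidence interval for the 29 tested imprinted genes, coloured by the allele known to be expressed; filled points passed both thresholds and dotted lines mark a 2-fold change. Filled points are 3 maternally and 6 paternally expressed genes, all to the left of the dotted line at −1, and Zrsr1 is the rightmost at 0.82.

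By the allele known to be expressed, in liver or in other tissues, 6 of 16 tested paternally expressed genes and 3 of 12 tested maternally expressed genes were lower by both thresholds. Their median log2 differences were −0.57 and −0.21. Of all tested genes 4.52% were called lower, and the median was 0.14. The paternally and maternally expressed genes were not compared by a test. Gnas, whose transcripts differ in their expressed allele, was the remaining tested gene. Another 17 imprinted genes had a mean under 0.5 FPKM and no liver above 1.06. In 11 of these (64.7%) every mutant liver was below every WT liver, in 1 (Rtl1, 5.88%) above, and in 5 the groups overlapped (Airn, Ascl2, Nap1l5, Phlda2 and Ube3a). Among all 13285 genes below the filter and above 0 in some liver, the shares were 12.7% below and 11.0% above. In the fit without the filter 4 of the 17 passed the adjusted p, namely Zim1, Peg10, Usp29 and Dio3. The share of all genes below the filter that passed in that fit is not given here. On the scale of FPKM + 1 these 4 were under 2-fold. Their WT mean FPKM were 259.6, 15.4, 162.1 and 15.8 times the mutant means, at levels near 0 in the mutants. A single gene tested on its own by a two-sided exact permutation test cannot go below p = 0.1 with 3 livers against 3.

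To see whether the drops extended along the chromosome, the other genes within 250 kb of the 9 fallen genes were read out. Of 91 such genes 22 were tested, 2 were called lower (Igf2os and Col1a2) and 1 higher (Ddc), against 4.52% and 8.17% of all tested genes. Another 8 passed the adjusted p at under 2-fold, against 44.3% of all. The median log2 difference was 0.03, against 0.14 over all. Beside H19, the mitochondrial ribosomal protein gene Mrpl23 was at 6.98, 7.22 and 7.30 FPKM in WT and 3.95, 3.83 and 4.14 in mutants (log2 −0.72, limma adjusted p = 6.92e-05), and the cathepsin D gene Ctsd at 135.8 to 146.7 and 170.4 to 176.6 (log2 0.30, limma adjusted p = 0.00101). Beside Grb10, Ddc, which encodes DOPA decarboxylase and is imprinted in the heart, was at 2.89, 3.18 and 3.49 FPKM in WT and 14.1, 14.2 and 14.8 in mutants (log2 1.88, SE 0.065, limma adjusted p = 3.75e-06). It thus rose at the locus where Grb10 fell. Near Sgce the collagen gene Col1a2 was at 7.98 to 8.39 and 1.80 to 1.98 FPKM (log2 −1.67), while Casd1 overlapped. Lower at under 2-fold were Gm26736 near Sgce (log2 −0.80), Cars (−0.69) and Osbpl5 (−0.41) near Cdkn1c, and Phactr2 near Plagl1 (−0.52). Higher at under 2-fold were Slc22a18 near Cdkn1c (0.455) and Cobl near Grb10 (0.875).

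**Figure D4:**
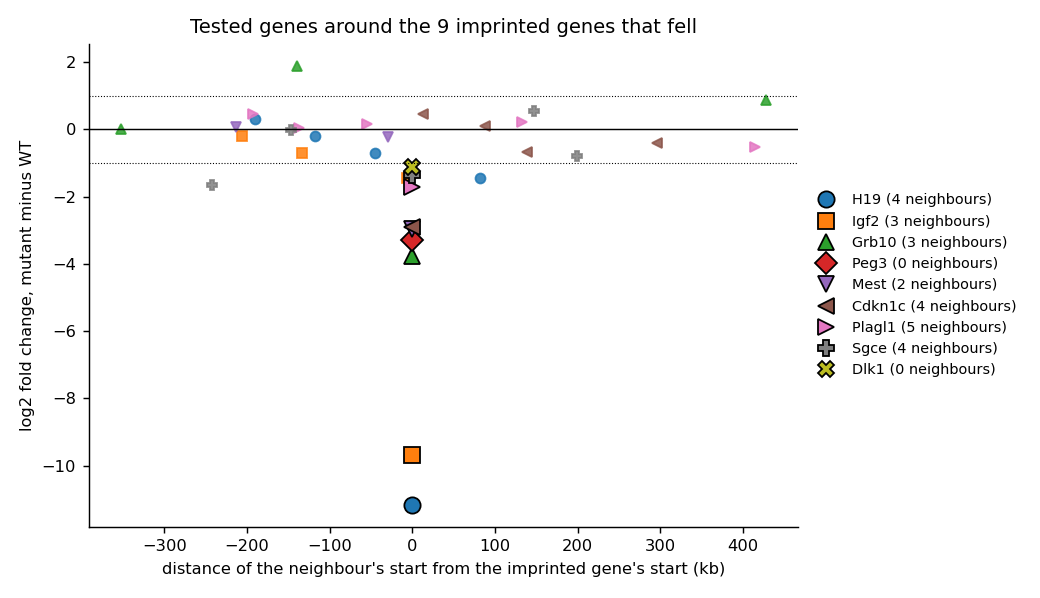
Log2 fold change (β-cateninΔ(ex3)/+ minus WT, of FPKM + 1) of the tested genes within 250 kb of the 9 imprinted genes that fell, against the distance in kb between starts along the chromosome; the large outlined symbols at 0 are the imprinted genes themselves. Ddc, in the Grb10 region, lies at 1.88, and the neighbours of H19 lie between −1.45 and 0.30.

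Motifs were searched in the 250 bases before each start in RefSeq (GRCm38.p6), which held 57 starts for 37 of the 46 genes. TGCCGC, the core bound by ZFP57, a protein that keeps methylation at imprinting control regions, was found on either strand before 9 of the 57 starts (15.8%) and 8.68% of all 32851 starts. Among the 9 fallen genes 6 had a start in the table and 2 of them, Mest and Plagl1, held the motif. CTTTGA, a core of the TCF/LEF factors that work with β-catenin, was found before 4 of the 57 starts (7.02%) and 13.8% of all, and among the fallen genes at 1 start of Igf2. Mest and Plagl1 hold TGCCGC before 3 starts, as 2 starts of Mest have nearly the same window, and neither holds CTTTGA. One window per gene is given with TGCCGC in capitals on either strand, that of Mest at chr6:30737800-30738049 and that of Plagl1 at chr10:13090582-13090831, both plus strand. A match of letters is not evidence of binding.
Mest: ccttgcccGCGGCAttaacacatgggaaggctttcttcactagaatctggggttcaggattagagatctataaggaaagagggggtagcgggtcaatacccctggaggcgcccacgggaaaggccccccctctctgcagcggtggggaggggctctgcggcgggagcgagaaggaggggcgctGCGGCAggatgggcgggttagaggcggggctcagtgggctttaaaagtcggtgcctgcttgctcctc
Plagl1: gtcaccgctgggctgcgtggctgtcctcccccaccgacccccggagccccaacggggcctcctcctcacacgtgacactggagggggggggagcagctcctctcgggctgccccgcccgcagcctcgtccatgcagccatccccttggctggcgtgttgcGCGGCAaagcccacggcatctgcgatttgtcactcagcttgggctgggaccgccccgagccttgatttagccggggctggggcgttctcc

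Among 23 factors known to set or keep imprints, 17 were tested and 0 passed both thresholds, against 12.7% of all tested genes. Another 10 passed the adjusted p at under 2-fold, which 44.3% of all tested genes did. The median log2 difference of the 17 was 0.05, against 0.14 over all. Trim28, the corepressor recruited by ZFP57, was at 20.9, 24.1 and 22.8 FPKM in WT and 13.5, 15.0 and 14.0 in mutants (log2 −0.64, limma adjusted p = 0.000413). The de novo methyltransferase gene Dnmt3b was at 1.91, 2.19 and 1.95 and 0.682, 0.670 and 0.633 (log2 −0.86, limma adjusted p = 8.26e-05). Dnmt1, the maintenance methyltransferase gene, was at 1.80 to 2.05 FPKM in WT and 2.46 to 2.74 in mutants (log2 0.28, limma adjusted p = 0.0107). Mbd3 (log2 0.57) and Ehmt2 (log2 0.51) rose more. Zfp57 itself was below the filter, with means of 0.630 FPKM in WT and 0.231 in mutants, and lower in every mutant liver. Of the 23 factors, tested or not, 7 were lower in every mutant liver, among them Zfp57 and Tet1 from below the filter. Another 7 were higher in every mutant liver, among them Tet2 from below the filter. The shares lower and higher were 23.0% and 43.0% of all tested genes, and 12.7% and 11.0% of genes below the filter. Ctcf, whose protein binds the unmethylated imprinting centre 1, did not pass (log2 0.24, limma adjusted p = 0.0888).

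Genes of the IGF axis outside the imprinted list were read next, because Igf2, Igf2r and Grb10 act in it. Of 20 genes 13 were tested, 5 were lower by both thresholds and 0 were higher, against 4.52% and 8.17% of all tested genes. Their median log2 difference was −0.78, against 0.14 over all. The median of −0.78 is the value of Igfals, which was at 32.4, 33.0 and 34.8 FPKM in WT and 4.11, 39.5 and 37.6 in mutants; without mutant replicate 1 the list's median was −0.19, with the same counts of calls. The binding protein genes Igfbp1 (1047 to 1062 FPKM in WT and 17.5 to 18.9 in mutants, log2 −5.79), Igfbp2 (1539 to 1561 and 61.6 to 64.0, log2 −4.60) and Igfbp3 (30.4 to 31.9 and 4.26 to 5.25, log2 −2.49) fell. So did Igf2bp3, whose RNA-binding protein binds Igf2 mRNA, at 1.91 to 3.27 FPKM in WT and at most 0.00196 in mutants (log2 −1.83), and Irs2, an insulin receptor substrate (log2 −1.23). Igf1, the main postnatal growth factor of the liver, was at 45.4 ± 0.867 FPKM in WT and 47.5 ± 0.384 in mutants (SD, n = 3, log2 0.06, limma adjusted p = 0.144).

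Other genes that are expressed before birth and repressed in the adult liver moved with the imprinted genes. Afp, α-fetoprotein, was at 600.8, 611.6 and 610.5 FPKM in WT and 2.48, 2.38 and 2.81 in mutants (log2 −7.42, SE 0.053, limma adjusted p = 8.94e-09). Gpc3, the oncofetal glypican, was at 54.7 to 57.4 and 1.41 to 1.80 (log2 −4.47), and Cd24a at 12.4 to 12.6 and 0.964 to 1.17 (log2 −2.70). Zhx2 and Zbtb20, known repressors of Afp and, for Zhx2, of H19 and Gpc3, were at 1.39 to 1.73 and 3.20 to 3.52 FPKM (log2 0.78, limma adjusted p = 0.000237) and at 0.608 to 0.716 and 1.56 to 1.76 (log2 0.68, limma adjusted p = 0.000221). In the list of 16 postnatal regulators and their targets, 12 were tested. By both thresholds 3 were lower and 1 was higher, against 4.52% and 8.17% of all tested genes. The higher one was Hnf4a (56.7 to 58.6 and 123.8 to 125.8 FPKM). What part any of these differences has in those of the imprinted genes was not tested.

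Marker genes of the liver's cell types moved with the groups as well. Of all tested genes 23.0% were lower and 43.0% higher in every mutant liver. By both thresholds 4.52% of them were lower and 8.17% higher. All 8 stellate cell and fibroblast markers were lower in every mutant liver and 5 passed both thresholds, with summed levels of 72.2 to 73.8 FPKM in WT and 19.3 to 21.0 in mutants. Col3a1 (log2 −2.43) and Reln (log2 −2.27) changed most. All 7 endothelial markers were lower in every mutant and 1 passed both thresholds (sums 69.2 to 70.6 and 49.6 to 51.0). All 6 Kupffer cell markers were higher in every mutant liver and 4 passed both thresholds (sums 155.6 to 160.3 and 453.7 to 465.6). Of 6 tested erythroid markers 4 were lower by both thresholds (sums 1782 to 2008 and 1002 to 1020). The globin genes Hba-a1 (means 988.5 and 555.4 FPKM) and Hbb-bs (906.2 and 441.6) made up most of the erythroid sums. Of 4 tested cholangiocyte markers 1, Spp1, was lower by both thresholds. Its means of 36.7 and 15.3 FPKM made up most of the sums of the cholangiocyte list (39.6 to 43.1 and 18.5 to 19.3). Epcam was lower and Sox9 higher in every mutant liver, and Krt19 and the untested Krt7 overlapped. Hepatocyte markers differed in both directions, with 2 lower and 1 higher of 6, and summed to 69242 to 72482 FPKM in WT and 34254 to 34608 in mutants. Most of these sums came from Alb (means 41434 and 24841), Apoa1 (17466 and 4332) and Ttr (11863 and 4443), which were lower in every mutant liver. Tat and Cps1 were higher in every mutant liver, and Asgr1 overlapped. The part of these shifts in the lower values of Dcn, Dlk1, Meg3, Peg3, Sgce and the other imprinted genes was not tested.

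**Figure D5:**
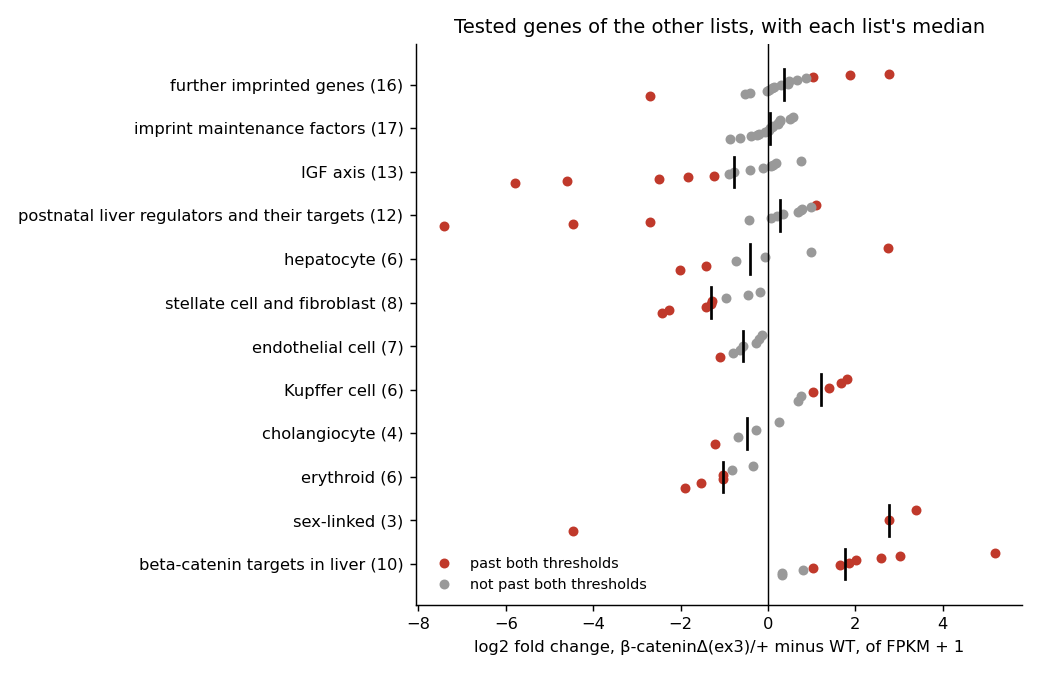
Log2 fold change (β-cateninΔ(ex3)/+ minus WT, of FPKM + 1) of the tested genes of the other lists, one point per gene, red where both thresholds were passed, with a black bar at each list's median. The 5 red points of the IGF axis lie to the left of 0 (its median, −0.78, is −0.19 without mutant replicate 1), all stellate cell genes lie to the left with a median of −1.29, and the β-catenin targets lie to the right.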

How the data were processed

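Total RNA of 3 WT and 3 β-cateninΔ(ex3)/+ livers was made into oligo(dT)-selected, dUTP-stranded libraries by the authors. The deposited table holds FPKM per gene. The submitters' processing notes name cutadapt 1.9, HISAT2 2.0.4, StringTie 1.3.4d, DESeq2 and edgeR, and the genome build is not given in the sources used here. Of 31950 gene IDs, 31856 are in GENCODE M21 (GRCm38), 28911 with the same coordinates.

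Since FPKM are not counts, log2(FPKM + 1) was fitted in R 4.3.3 with limma 3.58.1, moderating variances along a trend with level, over 13243 genes with a mean of at least 0.5 FPKM, and p-values were adjusted by Benjamini-Hochberg over all of them. A gene was called at an adjusted p under 0.05 and a fold change of FPKM + 1 of at least 2. Intervals are 95%. Fold values not on the log2 scale are ratios of group mean FPKM. The script was tested on simulated data. The labels do not say how far the livers are independent. The p-values set the group difference against the spread among the 3 livers within each group. That spread was small for some genes, as for H19 in WT (mean 2353 FPKM, SD 28.6).

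Values in every liver are given for the listed imprinted genes that passed both thresholds or had a group mean of at least 5 FPKM. They are also given for further genes chosen after their values were seen. The remaining genes are given by ranges, means, log2 differences or counts. The imprinted genes and all lists were chosen with earlier results of these data known. Depth was estimated from whole-fragment steps in the low values of genes with 1 exon (21.8% to 30.2% of those values lay on steps, against 4% by chance), so it is approximate. Alternatives were the pseudocount, the filter, 2 scalings, no trend, a replicate block and leaving out each liver; summing Igf2 with Gm49394 was added after seeing the data.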

Additional observations from a re-analysis of the deposited data

How the results depend on the processing

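The 9 lower calls became 8 at a mean of at least 1 FPKM and 11 with either scaling or a pseudocount of 0.1; leaving out 1 liver gave 9 to 10. Zrsr1 was the 1 higher call at a pseudocount of 0.1 (log2 1.16, adjusted p = 0.00222). At an adjusted p under 0.05 with any fold, 17 imprinted genes passed, 14 lower and 3 higher (58.6%, against 57.0% of all tested genes). Same-numbered livers did not deviate together (correlations 0.03, 0.02 and −0.01), and with the replicate block 9 were called.

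Over 372 comparisons of single genes with their value under an alternative, 353 kept their direction and their call by both thresholds, 0 lost a call, 8 gained one and 11 changed sign. The adjusted p alone crossed 0.05 in 20 comparisons: 5 lost it (Nnat without 3 of the livers in turn, Cd81 and Snrpn with quantile normalization) and 15 gained it in 9 genes, mostly with the scalings. Gains were Meg3 (−1.13 median-ratio, −1.19 quantile, −1.15 pseudocount 0.1, −1.06 without WT replicate 2), Dcn (−1.12 and −1.22 with the scalings), Ndn (−1.26 pseudocount 0.1) and Zrsr1. Sign changes were in genes near 0: Copg2 (0.012 without WT replicate 2), Peg13 (0.009 at pseudocount 0.1, −0.119 to 0.162 leaving out a liver), Mcts2 (−0.15 median-ratio, −0.19 quantile, −0.03 to 0.043 leaving out a liver) and Gnas (−0.10 median-ratio, −0.21 quantile); of these the quantile values of Mcts2 (adjusted p = 0.0406) and Gnas (0.0293) passed the adjusted p. The scalings shift the median of all genes downwards by construction; the cause of the other changes was not tested. FPKM without counts give no interval for the values near 0.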

Other observations

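A second list of 34 genes with imprinted expression reported mostly in placenta, brain or single tissues had 31 genes in the table. Of 16 tested, 1 was lower and 3 were higher by both thresholds, against 4.52% and 8.17% of all tested genes. The median log2 difference was 0.38, against 0.14 over all, so this list did not share the lower values of the first. Dhcr7, which encodes the last enzyme of cholesterol synthesis, was at 4.84, 4.54 and 4.30 FPKM in WT and 37.6, 35.8 and 36.7 in mutant livers (log2 2.76, SE 0.052, limma adjusted p = 2.82e-07). Slc22a3, an organic cation transporter gene beside Igf2r, was at 0.608, 0.917 and 0.693 FPKM in WT and 2.87, 2.41 and 2.35 in mutants (log2 1.03, SE 0.096, limma adjusted p = 0.000252), and Ddc also rose. Slc22a3 fell short of 2-fold without WT replicate 1 (log2 0.97) or mutant replicate 1 (log2 0.96). Qpct, which encodes glutaminyl-peptide cyclotransferase, was the 1 that fell, from 23.2, 23.7 and 23.0 FPKM to 2.85, 2.89 and 2.39 (log2 −2.71, SE 0.066, limma adjusted p = 8.17e-07).

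Among the β-catenin targets Oat, ornithine aminotransferase, was at 15.0 to 16.5 FPKM in WT and 600.9 to 614.7 in mutants (log2 5.19), and Glul, glutamine synthetase, at 102.4 to 104.6 and 618.7 to 632.9 (log2 2.59).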
